A study of Mus musculus with 6 samples.

Results

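The dual-specificity MAP kinase phosphatases described here are 9 genes, Dusp1, Dusp2, Dusp3, Dusp4, Dusp5, Dusp6, Dusp7, Dusp10 and Dusp16, taken by symbol from the 49492 rows of a table of read counts per gene. All 9 were in the table and all 9 passed the filter on low counts. The table holds 6 stranded mRNA libraries from RAW264.7, a mouse macrophage-like line transformed by Abelson leukaemia virus. In 3 libraries the cells had received an siRNA against Ep300 (labelled as Ep300 silenced) and in 3 a control siRNA (labelled WT), each at 50 nM for 48 h. The labels name no stimulus for either group. Ep300 encodes the acetyltransferase and transcriptional coactivator p300. Nothing in the labels tells whether replicates were separate cultures, and the p-values therefore cover only the spread among these libraries, part or all of which may be technical.

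MAP kinase phosphatases switch off ERK, JNK and p38 by removing the phosphates from the threonine and the tyrosine of the kinases' activation loop. Several of them are transcribed in response to the kinases that they switch off, which makes them negative feedback regulators. In macrophages they are known for limiting the response to Toll-like receptor ligands, with Dusp1 as the best-known case. They differ in where they act and on what: Dusp1, Dusp2, Dusp4 and Dusp5 are inducible nuclear enzymes, Dusp6 and Dusp7 act on ERK in the cytoplasm, and Dusp10 and Dusp16 prefer JNK and p38. Dusp3 is a small enzyme that lacks the kinase-binding domain of the others and is often grouped with the atypical dual-specificity phosphatases.

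Total counts were between 29993567 and 45377510 per library. The targeted gene, Ep300, was at 51.1, 59.0 and 54.9 CPM (read counts scaled by library size) in the Ep300 siRNA libraries and at 106.8, 115.3 and 118.4 CPM in the control libraries. Of 10 macrophage markers 9 were high enough to test, and their list summed to between 10960 and 11890 CPM after Ep300 siRNA and between 9708 and 11360 CPM in the controls. Most of that sum was Lyz2, a lysozyme gene (8263 ± 406 against 7471 ± 751 CPM, SD, n = 3). None of the 9 passed edgeR's test (3 were under 0.05 before adjustment; DESeq2 and limma-voom called 1 each). Those 3 all had negative log2 fold changes, Csf1r at −0.24 ± 0.07, Adgre1 at −0.23 ± 0.07 and Fcgr1 at −0.36 ± 0.15 (SE; edgeR adjusted p = 0.0666, 0.0855 and 0.191), and 6 of the 9 had positive ones. The part of these markers in the results on the phosphatases was not tested. The 20 markers of other cell types summed to at most 2.04 CPM in any library, and Epcam, Ncr1, Ly6g, S100a9 and Alb were at 0 counts in all. Ep300 siRNA replicate 1 stood apart in Gm42418, whose sequence overlaps ribosomal RNA, with 5823 CPM where the other 5 held 1327 to 2174 CPM.

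The promoters of Dusp1 and Dusp5, the members with the largest falls, and of Dusp16, the one that rose, are printed for the motifs they hold of transcription factors that use p300 or its paralog CBP as a coactivator, or that respond to ERK. Each runs 5′ to 3′ on the gene's strand from 250 bases before to 50 bases after the start in RefSeq (GRCm38.p6). They lie at chr17:26508423-26508722 (minus strand) for Dusp1, chr19:53528895-53529194 (plus strand) for Dusp5 and chr6:134792579-134792878 (minus strand) for Dusp16. Capitals mark the cyclic AMP response element (CRE, TGACGTCA), its shorter form TGACG and the CArG box bound by serum response factor, on either strand.
Dusp1: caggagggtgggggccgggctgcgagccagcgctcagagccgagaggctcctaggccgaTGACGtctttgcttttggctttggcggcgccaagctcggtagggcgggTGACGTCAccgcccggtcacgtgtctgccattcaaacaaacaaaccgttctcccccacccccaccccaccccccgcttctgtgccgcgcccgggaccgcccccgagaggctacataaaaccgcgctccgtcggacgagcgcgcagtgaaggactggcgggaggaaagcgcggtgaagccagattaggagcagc
Dusp5: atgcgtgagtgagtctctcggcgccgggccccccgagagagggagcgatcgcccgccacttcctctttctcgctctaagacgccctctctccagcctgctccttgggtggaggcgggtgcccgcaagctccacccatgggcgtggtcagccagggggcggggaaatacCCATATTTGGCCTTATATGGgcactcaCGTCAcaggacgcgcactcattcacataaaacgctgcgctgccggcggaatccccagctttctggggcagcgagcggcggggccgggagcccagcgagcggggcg
Dusp16: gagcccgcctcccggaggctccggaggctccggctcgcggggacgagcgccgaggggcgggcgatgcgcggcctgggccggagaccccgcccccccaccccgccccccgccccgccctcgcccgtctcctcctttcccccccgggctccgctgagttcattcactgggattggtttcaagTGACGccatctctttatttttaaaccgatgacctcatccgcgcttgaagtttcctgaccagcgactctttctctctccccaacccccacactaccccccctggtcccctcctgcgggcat

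The Dusp1 promoter held a full CRE from 143 bases before the start, and in addition a TGACG from 191 bases before it. A full CRE was found in 1 of 8 member promoters and in 1.79% of 32851 promoters of the same length. Every full CRE also contains TGACG, which 4 of the 8 held (Dusp1, Dusp2, Dusp5 and Dusp16) and 20.8% of all promoters. Dusp5 held a pair of adjoining CArG boxes, 82 and 72 bases before the start, and no other member promoter held one, against 1.63% of all promoters. That motif was searched for after the Dusp5 promoter had been read. GC boxes (GGGCGG) were in 7 of the 8, all but Dusp6, and in 35.7% of all promoters, and the E-box CACGTG was in Dusp1 and Dusp2 and in 7.15%. Neither the AP-1 site TGANTCA (7.81% of all promoters) nor the TATA box TATAAA (13.6%) was found in any of the 8. RefSeq's promoter table matched 8 of the 9 members, and Dusp4 was the one without an entry. The GC content of the 8 promoters ran from 57.3% to 78.7%, above the median of 52.7% over all promoters. The motif percentages over all promoters were not matched for GC content. A match describes letters in this window only and shows no binding.

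After Ep300 siRNA, 4 of the 9 phosphatases fell, 1 rose and 4 did not pass the test. Dusp5, Dusp1, Dusp4 and Dusp3 fell to between 0.623 and 0.809 of their control level, and Dusp16 rose 1.31-fold. Read beside all genes, 4.02% of the 15741 genes tested fell and 2.76% rose (6.78% in either direction; edgeR quasi-likelihood test, adjusted p under 0.05 by Benjamini-Hochberg over all genes tested). With library sizes alone in place of TMM scaling, 316 genes rose and 788 fell over all genes, against 435 and 633, and the members' calls were the same. The members' median log2 fold change was −0.20, where that of all genes tested was −0.0038. The libraries of the groups did not overlap for 5 members that were lower (Dusp1, Dusp3, Dusp4, Dusp5 and Dusp6) and for 1 that was higher (Dusp16). Over all genes tested, 14.4% were lower and 13% higher without overlap. DESeq2 and limma-voom also called 5 members each, the same 5. In bulk RNA, fewer cells with a transcript and less transcript per cell cannot be told apart.

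**Figure D1:**
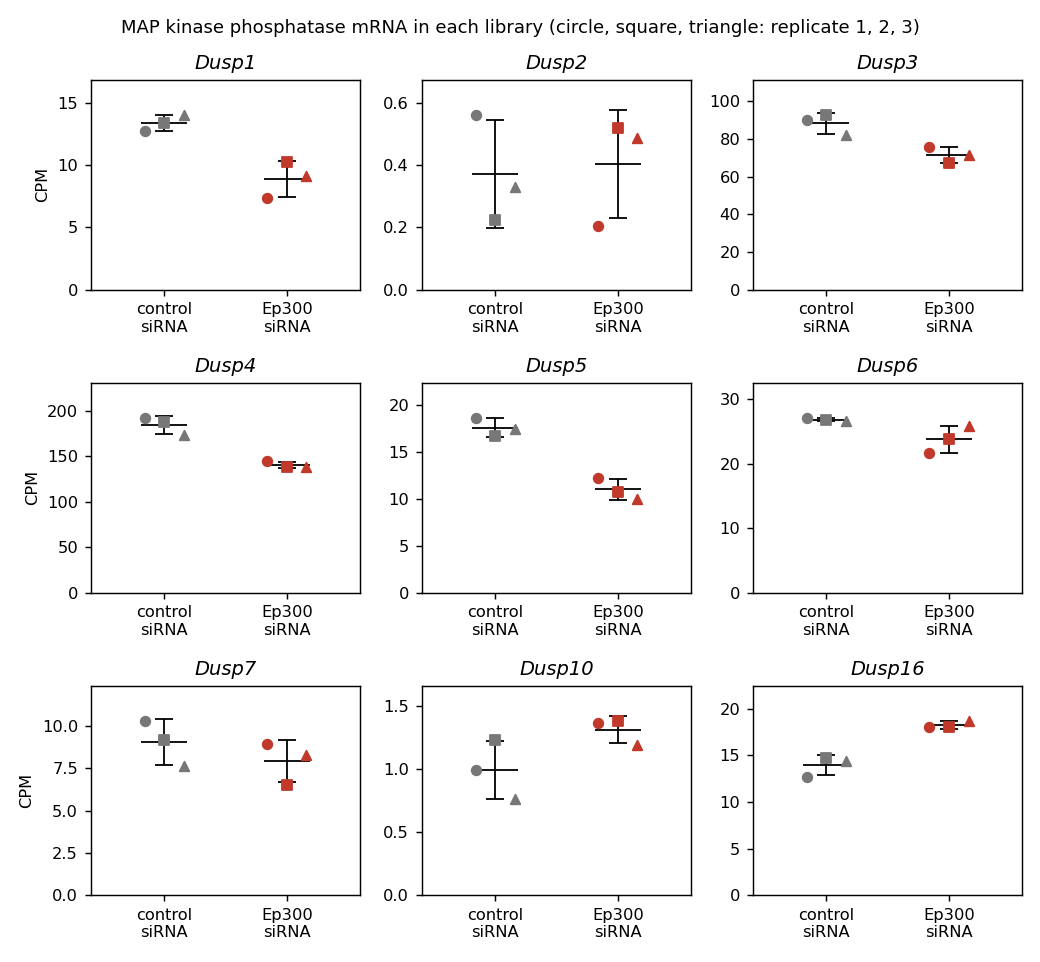
CPM of each phosphatase (y axes, each from 0) in the 3 control siRNA libraries (grey) and the 3 Ep300 siRNA libraries (red), with the mean and SD (n = 3) in black. Dusp1, Dusp3, Dusp4, Dusp5 and Dusp6 are lower without overlap, Dusp16 is higher without overlap, and Dusp2, Dusp7 and Dusp10 overlap between groups.

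Among the inducible nuclear enzymes, Dusp5, which acts on ERK alone, changed most. Its libraries held 12.2, 10.8 and 9.99 CPM after Ep300 siRNA (replicates 1, 2 and 3) and 18.6, 16.6 and 17.5 CPM in the controls. All 3 silenced libraries lay below every control. It fell to 0.623 of control, a log2 fold change of −0.68 ± 0.10 (SE; 95% interval from −0.89 to −0.47; adjusted p = 0.00209 by edgeR). Dusp5 stayed past the threshold in each of the 15 other settings run, with an adjusted p of at most 0.015. In GENCODE M21 (GRCm38) Dusp5 spans chromosome 19 from 53529109 to 53542431 on the plus strand. An antisense gene, AC137853.2, covers 22.1% of its exon bases, and no source used here tells whether reads were counted by strand.

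Dusp1, the early brake on p38 and JNK that is induced by Toll-like receptor ligands and glucocorticoids, was at 7.37, 10.2 and 9.13 CPM after Ep300 siRNA. In the controls it was at 12.7, 13.4 and 14.0 CPM. The groups did not overlap, and the lowest of the 6 was Ep300 siRNA replicate 1, the library with the most Gm42418. This was a fall to 0.667 of control, or −0.58 ± 0.12 in log2 (SE; 95% interval from −0.84 to −0.33; adjusted p = 0.0128 by edgeR). Without Ep300 siRNA replicate 1 it was −0.46 (edgeR adjusted p = 0.0321). The call was lost without control siRNA replicate 2 (edgeR adjusted p = 0.0567) or replicate 3 (0.0508), at log2 fold changes of −0.57 and −0.54. The gene is annotated on the minus strand of chromosome 17, from 26505590 to 26562128, a span that includes transcripts starting far upstream of the RefSeq promoter printed above.

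Dusp4, a nuclear phosphatase of ERK and JNK, was the most abundant member. It was measured at 144.7, 138.5 and 138.9 CPM after Ep300 siRNA and at 192.9, 187.9 and 173.3 CPM in the controls. Its silenced libraries lay within a narrow band well under the lowest control. It fell to 0.762 of the control level (log2 fold change −0.39 ± 0.06, SE; 95% interval from −0.53 to −0.26; adjusted p = 0.00377 by edgeR). As for Dusp5, no setting ended the call (adjusted p at most 0.0287). Dusp4 lies on chromosome 8 from 34807297 to 34819894, plus strand, with no overlapping gene in the annotation.

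Dusp2, a nuclear enzyme of activated leukocytes, was close to the lower limit of the test with 6 to 26 counts per library. Its values were 0.205, 0.519 and 0.486 CPM after Ep300 siRNA and 0.561, 0.223 and 0.328 CPM in the controls. The groups overlapped throughout. The 95% interval of its log2 fold change ran from −0.90 to 1.13 around 0.11, and the sign of the estimate turned when 1 of 3 libraries was left out (replicate 2 of either group, or Ep300 siRNA replicate 3). A difference was not detectable at this depth.

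The cytoplasmic ERK phosphatases did not pass the test. Dusp6, a feedback inhibitor of ERK, was at 21.6, 23.9 and 25.8 CPM after Ep300 siRNA and at 27.1, 26.7 and 26.6 CPM in the controls. Its 3 controls were nearly level, and the silenced libraries were spread out beneath them. Its log2 fold change was −0.17 ± 0.08 (SE; 95% interval from −0.34 to −0.01), with an unadjusted edgeR p of 0.0438 and an adjusted p of 0.208. Dusp7, its close relative, was at 8.94, 6.52 and 8.32 CPM after Ep300 siRNA and at 10.3, 9.20 and 7.66 CPM in the controls, and these overlapped. For Dusp7 the interval ran from −0.51 to 0.11 around −0.20 (edgeR adjusted p = 0.461), a range that holds both zero and the fall of Dusp4.

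The log2 ratio of Dusp1 to Dusp6 compares a nuclear stress kinase phosphatase with the cytoplasmic ERK phosphatase inside each library and needs no scaling between libraries. It was −1.55, −1.22 and −1.50 after Ep300 siRNA and −1.09, −0.99 and −0.92 in the controls. The silenced libraries lay below all controls, a mean difference of −0.42 (SD of 0.18 and 0.09, n = 3 each; exact permutation test, two-sided, p = 0.1, the smallest that 3 against 3 can give).

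Of the phosphatases of JNK and p38, Dusp16 rose and Dusp10 did not pass. Dusp16, which binds JNK and shuttles between nucleus and cytoplasm, was at 18.0, 18.0 and 18.7 CPM after Ep300 siRNA and at 12.7, 14.7 and 14.4 CPM in the controls. Every silenced library was above every control. It rose 1.31-fold, 0.39 ± 0.08 in log2 (SE; 95% interval from 0.21 to 0.57; adjusted p = 0.0178 by edgeR). Leaving out Ep300 siRNA replicate 2 (edgeR adjusted p = 0.0557) or replicate 3 (0.0664) ended the call, with the log2 fold change at 0.40 and 0.37. The gene lies on chromosome 6 from 134715468 to 134792625, minus strand.

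Dusp10, the other member that prefers JNK and p38, had 28 to 48 counts per library. It was at 1.36, 1.38 and 1.19 CPM after Ep300 siRNA and at 0.993, 1.23 and 0.766 CPM in the controls, with control siRNA replicate 2 inside the range of the silenced libraries. Its log2 fold change, 0.40 ± 0.25 (SE), was as large as that of Dusp16, but the 95% interval of −0.15 to 0.95 included zero (edgeR adjusted p = 0.397). At this depth Dusp10 could not be told from unchanged.

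Dusp3, which removes phosphate from ERK and JNK, was the second most abundant member. It was at 76.0, 67.5 and 71.3 CPM after Ep300 siRNA and at 90.3, 92.9 and 82.2 CPM in the controls. The groups were apart, with the smallest gap between Ep300 siRNA replicate 1 and control siRNA replicate 3. Dusp3 fell to 0.809 of control, −0.31 ± 0.07 in log2 (SE; 95% interval from −0.46 to −0.16; adjusted p = 0.0218 by edgeR). It did not pass without replicate 2 of the Ep300 siRNA group (edgeR adjusted p = 0.0971), its replicate 3 (0.0739) or replicate 2 of the controls (0.105). An antisense gene, Gm20659, covers 12.9% of the exon bases of Dusp3, and its own level was 5.75 ± 0.84 against 7.21 ± 0.91 CPM (SD, n = 3; edgeR adjusted p = 0.193). Reads of the pair cannot be told apart if the counting ignored the strand.

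**Figure D2:**
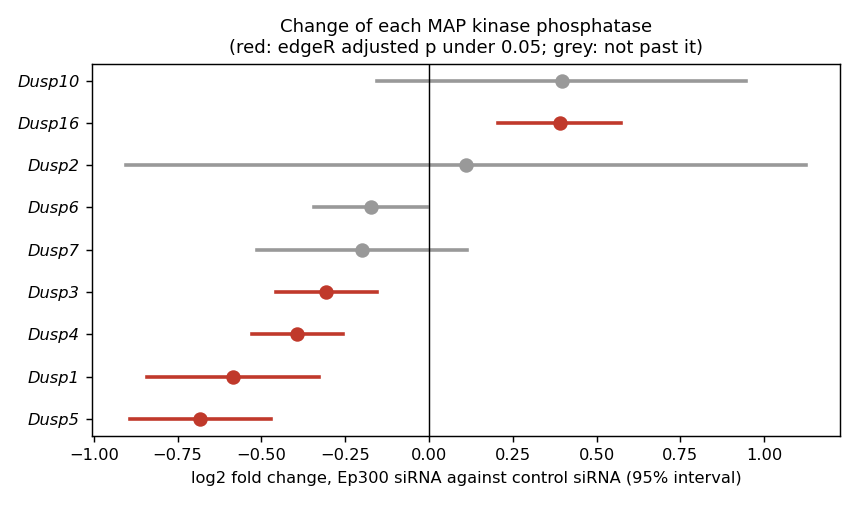
Log2 fold change of each member with its 95% interval (x axis, Ep300 siRNA against control siRNA), red where the edgeR adjusted p was under 0.05. Dusp5, Dusp1, Dusp4 and Dusp3 lie left of zero and Dusp16 right of it, and the widest interval is that of Dusp2, the member with the fewest counts.

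Levels were compared between members as CPM per kilobase of merged exon. In the controls the order was Dusp4 (67.4 ± 3.71), Dusp3 (18.9 ± 1.2), Dusp6 (8.57 ± 0.09), Dusp5 (7.11 ± 0.41), Dusp1 (4.04 ± 0.20), Dusp7 (2.70 ± 0.40), Dusp16 (1.79 ± 0.14), Dusp10 (0.327 ± 0.076) and Dusp2 (0.185 ± 0.086; SD, n = 3 throughout). Only the last pair, Dusp10 and Dusp2, overlapped in the controls, and Dusp4 stood 3.57-fold above the next. After Ep300 siRNA the mean order was the same, but Dusp1 (2.69 ± 0.43), Dusp7 (2.36 ± 0.37) and Dusp16 (2.34 ± 0.05) were closer to each other than in the controls. Dusp1 overlapped Dusp7, and Dusp7 overlapped Dusp16. In Ep300 siRNA replicate 1 Dusp1 ranked behind both, and in the other 5 libraries ahead of both. Per length of the longest transcript in place of merged exons, Dusp16 (3.58 ± 0.08) was above Dusp7 (2.47 ± 0.39) after Ep300 siRNA and just below it in the controls (2.73 ± 0.21 against 2.82 ± 0.42), and the other ranks were the same.

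**Figure D3:**
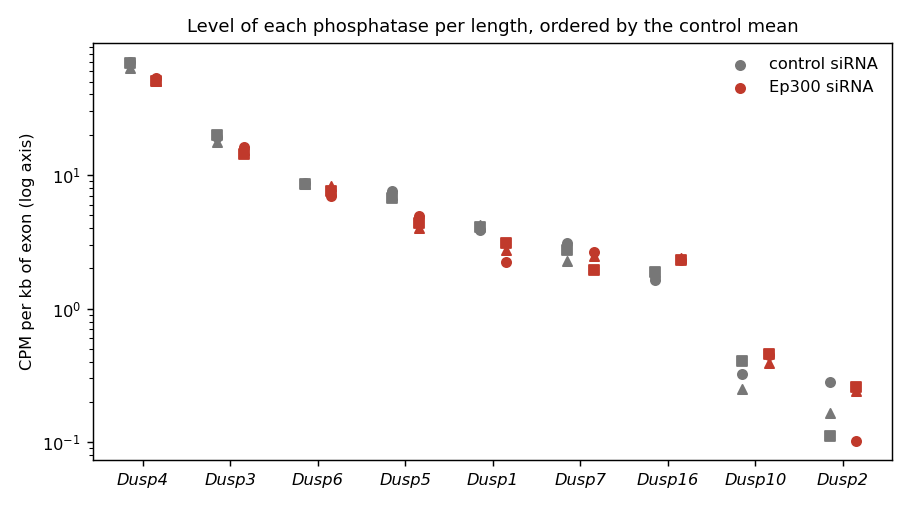
CPM per kilobase of merged exon in each library (log axis), with members ordered by the control mean, controls in grey and Ep300 siRNA in red. Dusp4 is the highest in every library, and the red points of Dusp1, Dusp7 and Dusp16 overlap in part, between 1.94 and 3.08.

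Summed over the 9 members, the level was 86.7 ± 1.83 CPM per kilobase after Ep300 siRNA and 111.0 ± 5.20 in the controls (SD, n = 3), or 0.781 of control. Most of this sum is Dusp4, which made up 60.7% ± 0.52 of it in the controls and 59.2% ± 0.53 after Ep300 siRNA (SD, n = 3). The share of Dusp16 went from 1.62% ± 0.18 to 2.70% ± 0.08 and that of Dusp5 from 6.41% ± 0.40 to 5.12% ± 0.45. Dusp10 made up 0.294% ± 0.059 and 0.498% ± 0.043. For Dusp4, Dusp5, Dusp10 and Dusp16 the shares of the groups did not overlap (exact permutation test, two-sided, p = 0.1, the smallest possible, and 0.225 adjusted over the 9 members). These shares come from raw counts and do not depend on scaling between libraries. They are relative to a sum that fell to 0.781 of control, so a member that did not change would gain share. In CPM, Dusp10 overlapped between the groups.

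The other genes that make, use or remove phosphorylated MAP kinases follow by list, each count to be read beside the 6.78% called over all genes. Of the atypical dual-specificity phosphatases, 10 of 15 could be tested and 1 fell, Dusp22, which is linked to JNK signalling (0.777 of control; 15.1 ± 1.15 against 19.5 ± 1.14 CPM, SD, n = 3; edgeR adjusted p = 0.0274). The classical members outside the set were low: Dusp8 did not pass (log2 fold change −0.28 ± 0.41, SE), and Dusp9 and the inactive relative Styxl1 had at most 14 and 8 counts in any library. Of 7 tested phosphatases of other families that act on MAP kinases none passed edgeR (1 was under 0.05 before adjustment; DESeq2 and limma-voom called 0 each). The smallest p there was that of Ptpn7, a tyrosine phosphatase of blood cells that binds ERK and p38 (−0.21 ± 0.07, SE; edgeR adjusted p = 0.0886).

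Among the substrates, 2 of 11 tested MAP kinases fell and none rose by edgeR. Before adjustment 3 were under 0.05, and DESeq2 called 3 and limma-voom 2. Without overlap 2 were lower and 2 higher (14.4% and 13% over all genes tested). Mapk8, which encodes a JNK, fell to 0.713 of control (23.5 ± 1.18 against 33.0 ± 0.80 CPM, SD, n = 3; edgeR adjusted p = 0.00194), and Mapk6, an atypical ERK relative, to 0.819 (edgeR adjusted p = 0.0146). Mapk9, which also encodes a JNK, was higher without overlap but did not pass (0.11 ± 0.06, SE, edgeR adjusted p = 0.298). Its level was 74.2 ± 2.18 against 69.0 ± 0.12 CPM (SD, n = 3), above that of Mapk8. The median of the MAP kinases was 0.10. Mapk3, which encodes an ERK, was at 0.10 ± 0.08 (SE; edgeR adjusted p = 0.512). Mapk14, the main p38 gene, was at 0.04 ± 0.07 (edgeR adjusted p = 0.767).

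Upstream, 2 of 18 MAP3 kinases and RAF genes rose and none fell (median 0.03). Map3k5, which encodes the stress-activated kinase ASK1 upstream of JNK and p38, rose 1.54-fold (35.6 ± 2.76 against 23.1 ± 0.81 CPM, SD, n = 3; edgeR adjusted p = 0.000898), and Map3k9 rose 1.38-fold (edgeR adjusted p = 0.0368). None of the 7 MAP kinase kinases passed edgeR (1 was under 0.05 before adjustment; DESeq2 and limma-voom called 0 each). The smallest p was that of Map2k7, a kinase of JNK, at 0.20 ± 0.06 (SE; edgeR adjusted p = 0.096).

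Of 9 tested kinases that MAP kinases activate, 3 rose and 1 fell (median 0.09). Rps6ka4, which encodes a nuclear kinase of CREB and histone H3, rose 1.45-fold (log2 fold change 0.54 ± 0.08, SE; edgeR adjusted p = 0.0025), Mknk2 1.27-fold and Rps6ka1 1.22-fold. Mapkapk2, the p38-activated kinase that stabilises cytokine mRNAs, fell to 0.853 (edgeR adjusted p = 0.0317). Rps6ka5, a relative of Rps6ka4, was lower without overlap but did not pass (−0.26 ± 0.10, SE, edgeR adjusted p = 0.154). Before adjustment 6 of the 9 were under 0.05, and without overlap 2 were lower and 4 higher (14.4% and 13% over all genes tested). Of 5 tested feedback inhibitors (Spry2, Spred1, Spred2, Spred3 and Errfi1) 1 fell. This was Spred1, to 0.723 (209.7 ± 12.3 against 290.0 ± 8.21 CPM, SD, n = 3; edgeR adjusted p = 0.00174). Spred2 was higher without overlap but did not pass (0.16 ± 0.06, SE, edgeR adjusted p = 0.138).

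Of 8 genes used as a readout of ERK output, without the members, 1 rose and 1 fell (median −0.14). Ccnd1, cyclin D1, was at 0.761 of control, and Epha2, an ephrin receptor, rose 1.61-fold (5.11 ± 0.51 against 3.18 ± 0.49 CPM, SD, n = 3; edgeR adjusted p = 0.0219). Before adjustment 4 of the 8 were under 0.05, and without overlap 3 were lower and 1 higher (14.4% and 13% over all genes tested). Ier3 and Phlda1 were lower without overlap but did not pass (−0.32 ± 0.10 and −0.29 ± 0.11, SE; edgeR adjusted p = 0.0755 and 0.127). Etv4 and Etv5, other transcriptional targets of ERK, were at 0.24 ± 0.33 and −0.07 ± 0.13 (SE) and did not pass. Of 20 immediate-early genes, the class to which Dusp1 is usually assigned, 7 fell and 1 rose (median −0.04). The smallest p belonged to Egr2 among the falls (0.560 of control; edgeR adjusted p = 0.000811) and to Nr4a3, the gene that rose (2.21-fold; edgeR adjusted p = 0.0231). Nr4a3 was low, with 32 to 106 counts per library (2.19 ± 0.68 against 0.99 ± 0.12 CPM, SD, n = 3). The other falls were Myc (−1.04 ± 0.22), Fos (−0.55 ± 0.11), Klf10 (−0.51 ± 0.08), Klf6 (−0.48 ± 0.08), Jun (−0.43 ± 0.06) and Ier5 (−0.30 ± 0.06, SE throughout). Before adjustment 11 of the 20 were under 0.05, and without overlap 9 were lower and 2 higher. Among those that did not pass, Junb and Egr1 were at −0.03 ± 0.06 and 0.03 ± 0.08 (SE), and the sign of Egr1 turned with library sizes alone.

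Dusp1 mRNA carries AU-rich elements that bind decay factors. Of 8 genes for proteins that bind such elements, 1 fell, Zfp36l2 (0.756 of control; edgeR adjusted p = 0.00235). Zfp36l1 did not pass, at −0.30 ± 0.13 (SE, edgeR adjusted p = 0.196). Before adjustment these 2 were under 0.05, and both were lower without overlap (14.4% over all genes tested). Zfp36 itself was at −0.02 ± 0.10 (SE). Of 9 genes for p300, CBP and their CREB partners, Ep300 alone passed, and DESeq2 and limma-voom called 1 each. Before adjustment 2 were under 0.05, Ep300 and Atf1. Atf1 was lower without overlap, at −0.28 ± 0.09 (SE, edgeR adjusted p = 0.1). Creb1 was at −0.05 ± 0.06 and Crebbp at 0.14 ± 0.07 (SE).

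Some of these calls did not hold without a single library. With 1 library left out the edgeR adjusted p of Dusp22 reached 0.112 (5 of 6 libraries, all but Ep300 siRNA replicate 3), that of Map3k9 0.144 (the same 5) and that of Mapkapk2 0.12 (all but control siRNA replicate 1). Mapk6 reached 0.068 (Ep300 siRNA replicates 1 and 2, control siRNA replicates 2 and 3), Nr4a3 0.0992 (replicates 2 and 3 of each group) and Epha2 0.0892 (Ep300 siRNA replicates 2 and 3, control siRNA replicate 2). Rps6ka1 reached 0.0599 (Ep300 siRNA replicate 3, control siRNA replicate 2) and Mknk2 0.0533 (Ep300 siRNA replicate 2). Fos reached 0.0533 (control siRNA replicate 3), Myc 0.0735 (replicate 2 of each group) and Ier5 0.0678 (replicates 2 and 3 of each group). Mapk8, Map3k5, Rps6ka4, Spred1, Ccnd1, Egr2, Jun, Klf6, Klf10 and Zfp36l2 kept their calls with each library left out.

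**Figure D4:**
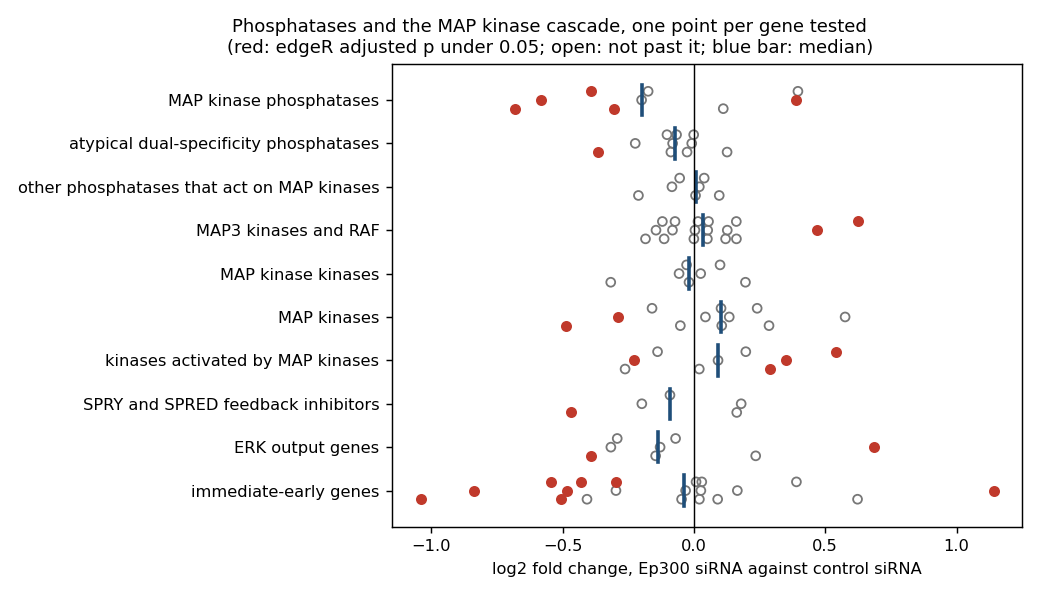
Log2 fold change (x axis, Ep300 siRNA against control siRNA) of every tested gene in 10 lists, one point per gene, red where the edgeR adjusted p was under 0.05, with the list's median as a blue bar. The phosphatase row holds 4 red points left of zero and 1 right of it, and the MAP3 kinase row holds 2 red points, both right of zero.

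For each member that passed, the genes with the most similar profile were found by the root mean square difference of centred log2 CPM over the 6 libraries, among 9177 genes with a mean of at least 5 CPM. The nearest to Dusp1 was Rgs1, a regulator of G protein signalling, at 0.046 log2 units (log2 fold change −0.65), followed by Evl (0.082) and Kitl (0.087). The nearest to Dusp5 were Atp6v0d2, a proton pump subunit (0.066), Slc5a3, a myo-inositol transporter (0.066), and Zdhhc14 (0.070). Dusp4 lay closest to Lpin2, Gpr137b and Inip (0.026, 0.026 and 0.031), and Dusp3 to Rilpl1, Trip6 and Adssl1 (0.031, 0.039 and 0.040). Dusp16 lay closest to Pigh, Prkx and Abca2 (0.022, 0.035 and 0.041). No member was among the 3 nearest genes of another. With 6 libraries in 2 groups, this measure mostly ranks genes by the size and evenness of the group difference.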

How the data were processed

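RNA from 6 RAW264.7 libraries, 3 with Ep300 siRNA and 3 with control siRNA, was analysed. The deposited values are raw read counts per gene symbol. The tools named in the submitters' processing notes are STAR 2.5.3a, fastp 0.23.4, edgeR 3.12.1 and featureCounts, with the build GRCm38. Annotation, strand and multimapping settings: not given in the sources used here. From 79.8% to 80.9% of counts of 1 to 4 were even, as counting both mates would give.

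All genes were fitted together in edgeR 4.0.16 (R 4.3.3) by the quasi-likelihood F-test after filterByExpr and TMM scaling, without covariates. The two-sided p-values were adjusted over all 15741 genes tested (Benjamini-Hochberg, threshold 0.05). Standard errors come from the fold change and F, and CPM uses TMM-scaled library sizes. Exon lengths and positions came from GENCODE M21, promoters from RefSeq. The list symbol Map3k20 is Zak in the table, and Spry3 was not matched. On simulated counts for 15508 genes, 62% of genes changed 1.5-fold were recovered, and 17 of 184 calls were false. That is a larger share than the threshold of 0.05. No change smaller than 1.5-fold was simulated. Of the members called, Dusp3, Dusp4 and Dusp16 changed by less, and Dusp1, at 0.667 of control, by just under 1.5-fold.

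Members and lists were chosen with earlier results of these data known. The genes named are the members, Ep300, Crebbp, the smallest p in each direction of each list (or the smallest p where none passes) and the 3 nearest profiles of each member called. Others are given as values, chosen after they were seen. Values of 1 list gene are not reported here. Alternatives were other scalings (RLE, upper-quartile, library sizes alone), no filter, 1 CPM in 3 libraries, DESeq2 1.42.0, limma-voom (limma 3.58.1), a replicate block, halved counts, an adjusted p under 0.01, each library left out and, for levels per length, the longest transcript. Exact tests used scipy 1.17.1 in Python 3.11.15, and figures matplotlib 3.10.9. PCR reads are not independent molecules, so counting error is a lower limit of the error.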

Additional observations from a re-analysis of the deposited data

How the results depend on the processing

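The 5 calls among the phosphatases (Dusp1, Dusp3, Dusp4, Dusp5 and Dusp16) were kept under RLE, upper-quartile and library-size scaling, with no filter, with 1 CPM in 3 libraries, by DESeq2 and limma-voom, with the replicate block and with halved counts. Dusp2 was not tested under the filter of 1 CPM or with halved counts. At an adjusted p under 0.01, 2 members were lower (Dusp4 and Dusp5) and 0 higher. With 1 library left out, between 2 and 4 members were lower and between 0 and 1 higher. The log2 fold changes then ran from −0.69 to −0.46 for Dusp1, −0.35 to −0.26 for Dusp3, −0.43 to −0.36 for Dusp4, −0.75 to −0.62 for Dusp5 and 0.33 to 0.44 for Dusp16. Those of the members that did not pass ran from −0.24 to −0.10 for Dusp6, −0.30 to −0.07 for Dusp7, 0.25 to 0.57 for Dusp10 and, for Dusp2, from −0.13 to 0.57, with negative values of −0.09 and −0.04 without Ep300 siRNA replicates 2 and 3 and −0.13 without control siRNA replicate 2. The difference in the share of Dusp16 was 1.57 percentage points per longest transcript against 1.09 per merged exon, and that in the log2 ratio of Dusp1 to Dusp6 ran from −0.52 to −0.36 with 1 library left out.

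Over all genes, 1068 passed (435 higher, 633 lower). The count was 1721 with no filter (730 higher, 991 lower; 30207 genes tested), 369 at an adjusted p under 0.01 (130 higher, 239 lower) and between 490 and 1054 with 1 library left out (202 to 447 higher, 280 to 607 lower). DESeq2 called 693 higher and 743 lower, and library sizes alone gave 316 higher and 788 lower; the cause was not tested. With the replicate number as a block, 1357 genes passed and no member's call changed (Dusp16 at a log2 fold change of 0.39, edgeR adjusted p = 0.0166). Deviations of same-numbered libraries from their group means were hardly correlated (r of 0.087, 0.020 and −0.047 across genes). With 3 libraries per group this cannot decide whether the numbers pair the samples. Depth limits Dusp2 and Dusp10 most, with at most 26 and 48 counts in a library. If both mates were counted, fewer read pairs than counts lie behind these and the other low counts.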
